A study of Mus musculus with 9 samples.

Results

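The genes described here are those of the mouse major histocompatibility complex (MHC) and of the machinery that loads its products with peptide. Members were taken from the count table by name. They are every gene whose symbol starts with H2-, except 2 with names ending in -ps, together with B2m, Tap1, Tap2, Tapbp, Cd74, Ciita, Nlrc5, Psmb8, Psmb9 and Psmb10. The rule gave 53 of the 56860 genes in the table, namely 30 of class I, 11 of class II and 12 of machinery and other genes with an H2- symbol. All 43 genes with an H2- symbol lie on chromosome 17, between H2-K2 and H2-M2, from 34193608 to 37794443 in mm39. RNA was sequenced from spleen cells labelled CD4+ T cells in 9 mouse libraries. CIA mice given luteolin, a plant flavone, CIA mice without it, and control mice each gave 3 libraries. The labels state neither the strain, sex or age of the mice, nor the dose, route or duration of luteolin, nor what the control mice received, and the series title names RA and Th17 cells as its subject. Whether the 3 libraries of a group are separate animals, pools or repeat preparations is not stated either, so a p-value speaks of the spread between libraries and not between animals.

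MHC class I molecules are a heavy chain paired with beta-2-microglobulin, and they show peptides cut from proteins inside nearly every nucleated cell to CD8 T cells. The peptides are cut by the proteasome, pumped into the endoplasmic reticulum by the Tap transporter and loaded with the help of tapasin. Class II molecules are pairs of an alpha and a beta chain made chiefly by B cells, dendritic cells and macrophages, and they show peptides from taken-up proteins to CD4 T cells. Mouse T cells make class I but little or no class II. The Nlrc5 protein switches on class I genes and the Ciita protein class II genes, both through a short promoter module, and interferon gamma raises both classes.

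The promoters of members that moved differently are shown because this module lies just before the start of the gene. The sequences are from RefSeq on GRCm38.p6, an older build than that of the counts, and 37 of the 53 members, 26 of the 36 that were tested, had a window there. Each run is read 5′ to 3′ on the gene's own strand, lies within the 250 bases before the start and is cut where an annotated exon enters that stretch. Capitals mark letters found by search on both strands, and overlapping matches run together. The letters sought were CCAAT (the Y box of the module), TGACG (the core of its CRE-type element), AACNGATG (a core of the class II X box), GAAANNGAA (a core of the interferon response element) and GGGATTCCC (the core of the kappa B site of class I genes).
H2-K1 (chr17:34000348-34000597, minus strand): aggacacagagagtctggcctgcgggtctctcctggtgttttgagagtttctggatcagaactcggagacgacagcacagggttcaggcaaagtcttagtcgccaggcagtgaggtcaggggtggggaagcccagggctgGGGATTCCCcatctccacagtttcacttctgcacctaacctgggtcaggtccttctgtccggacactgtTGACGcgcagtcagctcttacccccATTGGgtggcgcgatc
H2-Q10 (chr17:35469839-35470088, plus strand): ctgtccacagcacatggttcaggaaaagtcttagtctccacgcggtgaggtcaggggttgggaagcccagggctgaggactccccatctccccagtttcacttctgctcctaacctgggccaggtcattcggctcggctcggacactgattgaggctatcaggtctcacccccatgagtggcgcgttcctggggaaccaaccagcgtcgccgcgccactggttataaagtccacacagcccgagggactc
H2-T22 (chr17:36042748-36042960, minus strand): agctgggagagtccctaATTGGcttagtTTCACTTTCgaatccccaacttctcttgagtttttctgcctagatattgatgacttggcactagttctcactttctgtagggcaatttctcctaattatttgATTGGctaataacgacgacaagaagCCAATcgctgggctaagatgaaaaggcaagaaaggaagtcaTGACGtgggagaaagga
H2-M2 (chr17:37483555-37483804, minus strand): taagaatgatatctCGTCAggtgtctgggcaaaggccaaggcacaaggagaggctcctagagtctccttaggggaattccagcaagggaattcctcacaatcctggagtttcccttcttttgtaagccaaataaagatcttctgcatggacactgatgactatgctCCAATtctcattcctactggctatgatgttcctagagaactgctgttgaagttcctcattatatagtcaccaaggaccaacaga
B2m (chr2:122147437-122147685, plus strand): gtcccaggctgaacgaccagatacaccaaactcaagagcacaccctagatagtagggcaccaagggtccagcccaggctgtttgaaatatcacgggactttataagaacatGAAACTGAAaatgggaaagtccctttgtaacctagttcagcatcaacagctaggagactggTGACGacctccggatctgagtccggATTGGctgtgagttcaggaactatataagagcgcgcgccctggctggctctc
H2-Aa (chr17:34287824-34288073, minus strand): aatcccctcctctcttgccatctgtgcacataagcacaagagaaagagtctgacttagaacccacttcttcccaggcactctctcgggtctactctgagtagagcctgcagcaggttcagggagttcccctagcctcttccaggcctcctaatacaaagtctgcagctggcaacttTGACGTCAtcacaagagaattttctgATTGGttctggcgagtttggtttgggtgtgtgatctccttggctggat
H2-Eb1 (chr17:34305721-34305866, plus strand): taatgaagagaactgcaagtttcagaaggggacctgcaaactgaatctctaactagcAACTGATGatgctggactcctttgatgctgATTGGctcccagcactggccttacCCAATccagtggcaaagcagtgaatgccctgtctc
H2-DMb2 (chr17:34144999-34145235, plus strand): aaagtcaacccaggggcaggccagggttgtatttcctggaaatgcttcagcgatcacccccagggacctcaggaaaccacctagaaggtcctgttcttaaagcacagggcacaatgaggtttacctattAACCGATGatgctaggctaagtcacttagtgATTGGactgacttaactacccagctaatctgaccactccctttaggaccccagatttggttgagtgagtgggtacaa
In these lines H2-K1 and H2-T22 stand for the class I genes that were lower in CIA and higher with luteolin, H2-Q10 for the class I gene that did the opposite, and H2-M2 for the largest change. B2m stands for the class I machinery, and H2-Aa, H2-Eb1 and H2-DMb2 for class II.

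CCAAT was found in the windows of 10 of 11 tested class I genes, 8 of 8 tested class II genes and 5 of 7 tested machinery genes, against 33.8% of all 32851 windows of the table. Here and below a member counts if any of its windows matched, whereas the share of all windows counts each window. H2-DMa, which has more than 1 window, matched CCAAT in only 1 of them. Of the tested class I genes with a window, H2-Q10 was the 1 without it. TGACG was found in 7 of 11 class I windows, 1 of 8 class II windows and 3 of 7 machinery windows, against 17.8% of all windows. The AACNGATG core was found in no class I or machinery window and in 4 of 8 class II windows, those of H2-DMb2, H2-DMb1, H2-Eb1 and H2-Eb2, against 1.98% of all windows. GGGATTCCC was found in 4 of 11 class I windows, those of H2-K1, H2-D1, H2-Q6 and H2-Q7, and in no class II or machinery window, against 0.301% of all windows. GAAANNGAA was found before H2-T22, H2-T23 and B2m, against 7.13% of all windows. That is 2 of 11 class I, 0 of 8 class II and 1 of 7 machinery genes with a window. Only this spacing of the letters was sought, so a window without a match may hold the element in another form. The H2-K1 and H2-Q10 runs both contain tttcacttc, which the search does not cover. The same letters occur in the windows of H2-Q6, H2-Q7 and H2-M3. The forms searched were chosen with these windows in view, so an excess over all windows may be built in and is no test. A match describes letters only, and binding was not measured.

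The libraries held 33436951 to 41815573 counts with luteolin, 31851523 to 35670309 in CIA and 31234177 to 40553934 in control, and the members took 0.7% to 1.26% of them. Of 56860 genes, 19348 had enough counts to be tested with edgeR's quasi-likelihood test, adjusted over all of them by the Benjamini-Hochberg method at a threshold of 0.05, and a change is called only on that basis. The gene that defines the labelled cells, Cd4, was at 104 ± 4.57 CPM with luteolin, 128 ± 39.6 CPM in CIA and 2.92 ± 0.639 CPM in control (SD, n = 3 each), so the control libraries go against their label. CPM here is the count in a library set against its total and scaled by TMM, a method that evens out differences in composition. A set of 8 T cell markers summed to 360.2 to 379 CPM with luteolin, 335 to 583 CPM in CIA and 178 to 209 CPM in control, and 8 neutrophil markers to 7596 to 8071 CPM with luteolin, 5458 to 9521 CPM in CIA and 1775 to 2194 CPM in control. S100a9 was the largest part of the neutrophil sum, which hides that 5 of its markers were higher and 3 lower with luteolin than in CIA. Mpo averaged 261 ± 28.3 CPM with luteolin and 1.54 ± 0.339 CPM in CIA, and Ly6g 1.57 ± 0.342 CPM and 8.58 ± 2.73 CPM. The libraries are therefore treated as spleen cell preparations that contain several cell types, and in such bulk RNA fewer cells of a type and less RNA per cell cannot be told apart.

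Class I genes and the class I machinery were mostly higher with luteolin than in CIA, whereas class II genes mostly did not pass that test. Of 16 tested class I genes 10 were higher and 1 lower, of 11 tested machinery and other genes 8 were higher and 1 lower, and of 9 tested class II genes none was higher and 1 was lower. None of these 9 was higher by DESeq2 or at an unadjusted edgeR p under 0.05, but H2-DMb1 was called higher with no filter on low counts (0.47, adjusted p = 0.00435) and without CIA replicate 1 (0.99, adjusted p = 0.00319). Over all tested genes, 47.3% passed in this comparison, 23.1% as higher and 24.2% as lower. The luteolin libraries lay wholly above the CIA libraries for 18 of the 36 tested members and wholly below them for 2, against 28.0% and 27.7% of all tested genes. The median log2 fold change was 0.39 in class I, 0.96 in machinery and -0.24 in class II, beside -0.04 over all tested genes. The class II tests were less precise, with an SE of 0.29 to 0.44 for the tested genes other than H2-DMa (0.12). The SE was 0.07 to 0.13 for class I genes with a mean of at least 10 CPM. A class II change the size of the class I median could therefore have been missed. In CIA against control, all 3 classes were mostly lower. There 12 of 16 class I genes, 9 of 11 machinery and other genes and 8 of 9 class II genes were lower and 1 class I gene was higher, against 26.6% of all tested genes higher, 24.5% lower and 51.1% in either direction. The CIA libraries lay wholly above control for 1 tested member and wholly below it for 29, against 29.7% and 29.1% of all tested genes. The medians were -0.60 for class I, -0.50 for machinery and -1.42 for class II, beside -0.01 for all tested genes.

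With luteolin against control, class II genes were called in 1 direction only. All 9 tested class II genes were lower, with a median log2 fold change of -1.77, whereas 2 class I genes were higher and 3 lower of 16, with a median of 0.05, and 6 machinery and other genes were higher and 3 lower of 11, with a median of 0.32. Over all tested genes 24.2% were higher, 20.8% lower and 45.0% either, with a median of -0.01. The luteolin libraries lay wholly above control for 11 tested members and wholly below it for 16, against 32.3% and 30.9% of all tested genes. The comparison of luteolin with CIA and that of CIA with control share the CIA libraries, and the 2 comparisons with control share the control libraries, so their values are set side by side and not counted as separate evidence. Across the 3 tests, 8 class I genes were lower in CIA than in control, higher with luteolin than in CIA and not past the threshold between luteolin and control. By contrast, 8 class II genes were lower in CIA, did not pass between luteolin and CIA and were lower with luteolin than in control. The first pattern was found in 7.67% and the second in 7.81% of all tested genes.

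**Figure D1:**
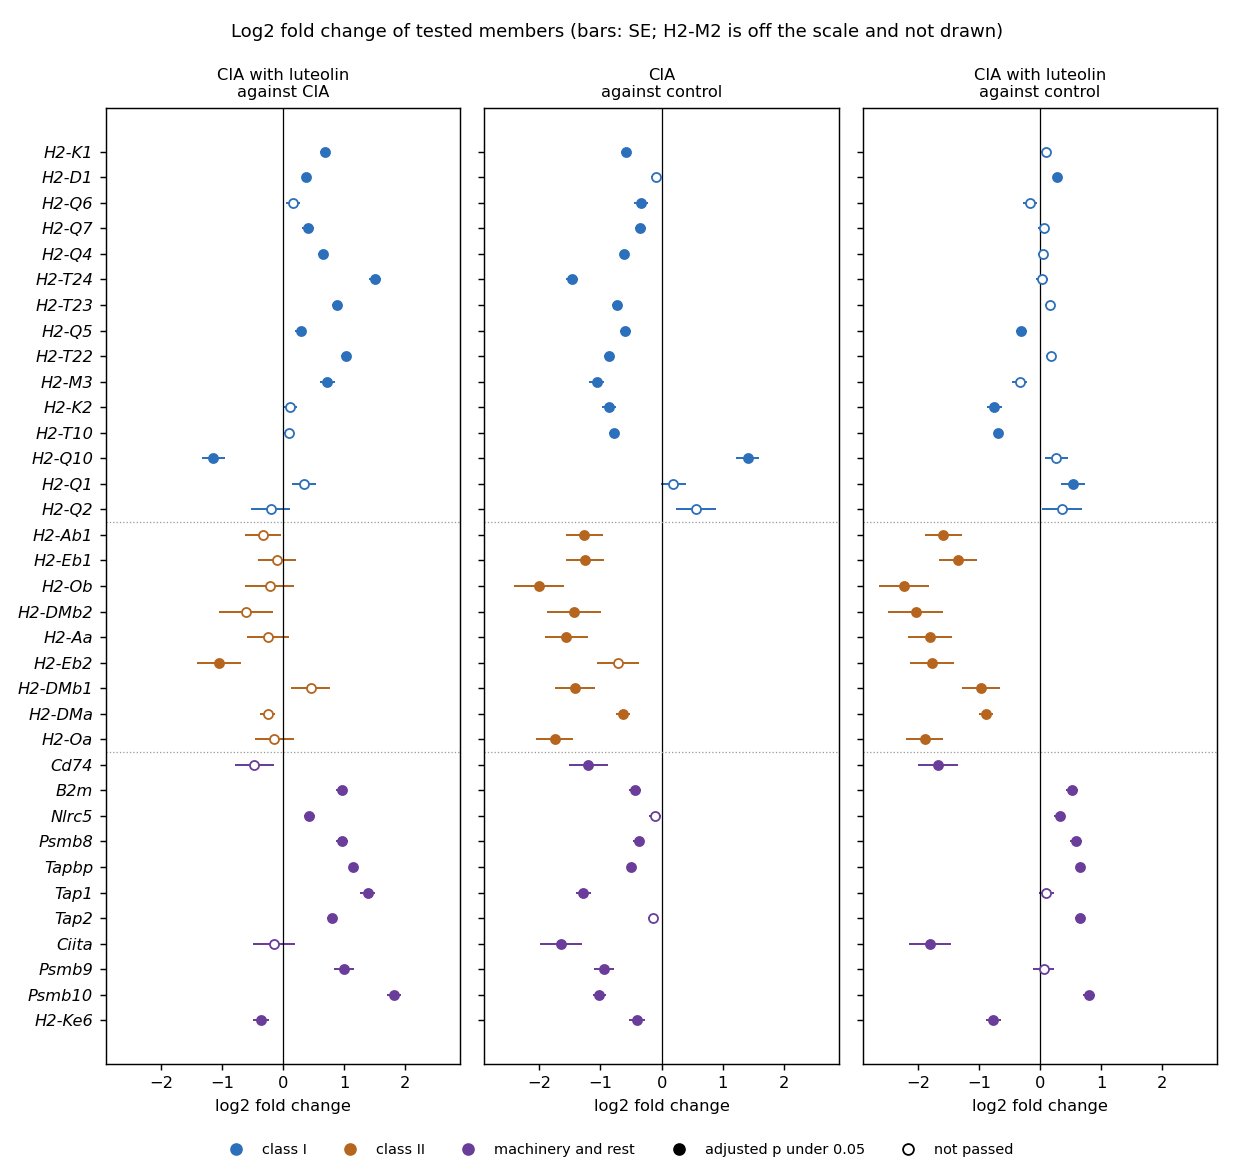
Log2 fold change (x axis) of each tested member (y axis), with its SE as a bar, in CIA with luteolin against CIA, CIA against control and CIA with luteolin against control. Filled points passed the adjusted threshold of 0.05; class I points shift to the right of 0 in the first panel, and class II points lie left of 0 in the other 2, while H2-M2, at 7.13 and -7.17 in the first 2 panels, is off the scale.

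The 2 classical class I heavy chains differed from each other in CIA. H2-K1 (chr17:34214991-34219321, mm39) was at 3570.5, 3994 and 3790.4 CPM with luteolin, 2254, 2440.3 and 2389.8 CPM in CIA and 3157, 3664 and 3769 CPM in control. Its CIA libraries lay below all others, and the luteolin and control libraries overlapped. H2-K1 was higher with luteolin than in CIA, with a log2 fold change of 0.68 ± 0.08 (SE, edgeR adjusted p = 6.61e-05), and lower in CIA than in control at -0.58 ± 0.08 (adjusted p = 0.000224). H2-D1 (chr17:35481706-35486475) was at 2245, 2274 and 2221 CPM with luteolin, 1574, 1735 and 1866 CPM in CIA and 1769.9, 1931 and 1838 CPM in control. Here the luteolin libraries lay above all others, while CIA and control overlapped. H2-D1 was higher with luteolin than in CIA at 0.38 ± 0.07 (adjusted p = 0.00154) and than in control at 0.28 ± 0.07 (adjusted p = 0.0085), and CIA against control did not pass at -0.10 ± 0.07 (adjusted p = 0.274). On the per-length scale, in CPM per kilobase of exon, the ratio of H2-K1 to H2-D1 was 1.48 ± 0.0747 with luteolin, 1.21 ± 0.0712 in CIA and 1.68 ± 0.118 in control (SD, n = 3 each). The CIA libraries had the lowest ratios of all 9 libraries, and no test was made of this ratio.

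Both chains were the most abundant members per length, at 1288 for H2-K1 and 871 for H2-D1 with luteolin, 804 and 669 in CIA and 1202 and 716 in control, all mean CPM per kilobase. The summed level of all 30 class I genes was 8143, 8752 and 8430.5 CPM with luteolin, 5398, 5907 and 6079 CPM in CIA and 7293, 8089.7 and 8315 CPM in control. Its CIA libraries lay below all others, and the ranges of luteolin and control overlapped. H2-K1 and H2-D1 made up most of this sum, at 5816 to 6268 CPM with luteolin, 3828 to 4256 CPM in CIA and 4927 to 5607 CPM in control.

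Several nonclassical class I genes moved further than the classical chains, among them 3 neighbours of the T region. H2-T24 (chr17:36316587-36331452) was at 217, 248 and 209 CPM with luteolin, 77.6, 89 and 71.8 CPM in CIA and 215, 218 and 229 CPM in control. The CIA libraries stood well below the others, which overlapped each other. The log2 fold change was 1.5 ± 0.10 with luteolin against CIA (adjusted p = 1.22e-06) and -1.47 ± 0.10 in CIA against control (adjusted p = 4.23e-06). H2-T23 encodes Qa-1, which presents leader peptides of other class I chains to receptors of NK cells. Its level was 202, 202 and 199.5 CPM with luteolin, 98.8, 121 and 106 CPM in CIA and 184, 181 and 174 CPM in control. The luteolin libraries lay just above control and far above CIA, with a log2 fold change of 0.89 ± 0.08 against CIA (adjusted p = 1.51e-05), and the step from control did not pass at 0.16 ± 0.08 (adjusted p = 0.137). With only the 6 libraries compared that step passed, at 0.16 (adjusted p = 0.0155). H2-T22, whose product is bound by a subset of gamma-delta T cells, was at 175, 179.5 and 159 CPM with luteolin, 79.1, 80.9 and 90.8 CPM in CIA and 152, 153 and 149 CPM in control. It showed the same order, with log2 fold changes of 1.03 ± 0.08 with luteolin against CIA (adjusted p = 4.42e-06) and -0.86 ± 0.08 in CIA against control (adjusted p = 2.69e-05). Of its exonic bases 29.6% are shared with the opposite-strand gene A930015D03Rik, and whether reads of that gene were kept apart there is not known. Without CIA replicate 3 the comparison of H2-T22 with luteolin against control passed, at a log2 fold change of 0.18 (adjusted p = 0.0361), whereas in all 9 libraries it did not, at 0.18 ± 0.08 (adjusted p = 0.0986). It also passed with only the 6 libraries compared (0.18, adjusted p = 0.0192) and with a filter of 1 CPM in 3 libraries (0.21, adjusted p = 0.0475).

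**Figure D2:**
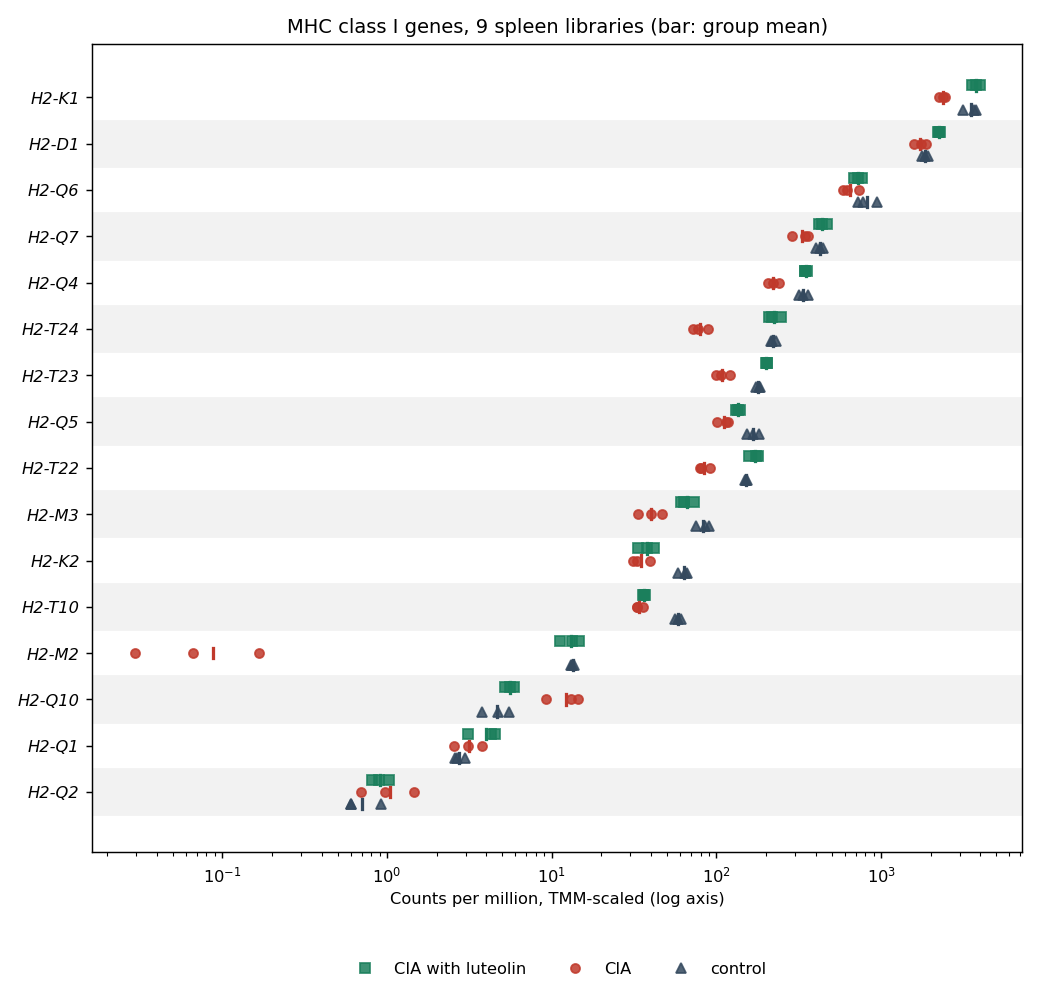
Level in CPM (log axis) of the 16 tested class I genes (y axis) in each library of CIA with luteolin (squares), CIA (circles) and control (triangles), with the group mean as a bar. CIA circles lie left of both other groups for H2-K1, H2-T24, H2-T23, H2-T22 and far left for H2-M2, and right of them for H2-Q10.

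The largest change of any member was that of H2-M2, the last of the H2- genes along the chromosome (chr17:37791742-37794443) and a nonclassical class I gene. It had 614, 444 and 449 counts in the luteolin libraries, 6, 1 and 2 counts in the CIA libraries and 533, 533 and 416 counts in the control libraries. Transcripts were thus close to absent in CIA and at like levels in the other groups, 13 ± 1.72 CPM with luteolin and 13.4 ± 0.247 CPM in control (SD, n = 3 each). The log2 fold change was 7.13 ± 0.28 with luteolin against CIA (adjusted p = 5.08e-08) and -7.17 ± 0.28 in CIA against control (adjusted p = 3.42e-07). With so few counts in CIA the size is loose. The ratio of summed, scaled counts was 145 with luteolin over CIA (exact 95% interval 76.4 to 319) and 149 for control over CIA (78.5 to 327), and the intervals widened to 63.7 to 603 and 65.4 to 619 when the counts were halved, which allows for the mates of each read pair having been counted apart. These intervals cover counting error only. Without CIA replicate 1, which held 6 of the 9 CIA counts, the log2 fold changes were 8.03 and -8.07. H2-M2 shares no 150-base stretch with another annotated gene and no exonic bases with a neighbour.

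H2-Q10, a class I gene known in the mouse for a secreted product of liver, was the 1 tested class I gene that was higher in CIA than in control, and it is named after its values were seen. It was at 5.55, 5.91 and 5.2 CPM with luteolin, 9.26, 13.1 and 14.5 CPM in CIA and 3.75, 4.69 and 5.48 CPM in control. The CIA libraries lay above both other groups, which overlapped. H2-Q10 was lower with luteolin than in CIA, with a log2 fold change of -1.14 ± 0.19 (adjusted p = 0.000628), and higher in CIA than in control at 1.41 ± 0.19 (adjusted p = 0.00021). Of the 150-base stretches of its transcripts 3.43% also occur in another gene, mostly H2-Q7, and how reads from such stretches were counted is not stated.

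The rest of the Q region moved less. H2-Q4 was at 345, 347 and 354 CPM with luteolin, 206, 219.5 and 238 CPM in CIA and 316, 335 and 360.3 CPM in control. Its CIA libraries lay below the others, and the log2 fold change was 0.66 ± 0.08 with luteolin against CIA (adjusted p = 7.66e-05) and -0.61 ± 0.08 in CIA against control (adjusted p = 0.000159). H2-Q7, which encodes a Qa-2 antigen, averaged 440.0 ± 25 CPM with luteolin, 332 ± 38.3 CPM in CIA and 423 ± 20.7 CPM in control and was higher with luteolin than in CIA at 0.41 ± 0.09 (adjusted p = 0.00427). H2-Q6, its close relative, averaged 726 ± 44.4 CPM with luteolin, 648 ± 78.4 CPM in CIA and 818 ± 117 CPM in control, all 3 groups overlapped, and luteolin against CIA did not pass at 0.16 ± 0.11 (adjusted p = 0.26). H2-Q6 was called lower in CIA than in control at -0.34 ± 0.11 (adjusted p = 0.0301), and the call was lost without control replicate 3 (-0.22), CIA replicate 1 (-0.27) or CIA replicate 2 (-0.31), and with only the 6 libraries compared (-0.33, adjusted p = 0.072). Without CIA replicate 3, H2-Q6 passed as higher with luteolin than in CIA, at 0.26. Shared 150-base stretches made up 5.99% of H2-Q6 and 5.9% of H2-Q7.

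H2-Q5 averaged 135 ± 3.75 CPM with luteolin, 111 ± 8.28 CPM in CIA and 167 ± 14.8 CPM in control, with no overlap between any 2 groups. It was higher with luteolin than in CIA at 0.29 ± 0.09 (adjusted p = 0.0197) and lower with luteolin than in control at -0.30 ± 0.09 (adjusted p = 0.0155). The first call was lost with upper-quartile factors (0.22, adjusted p = 0.0537). The second was lost without control replicate 3 (-0.24) or any 1 luteolin library (-0.28, -0.27 and -0.30). H2-Q1 was a low gene at 3.97 ± 0.75 CPM with luteolin, 3.14 ± 0.614 CPM in CIA and 2.75 ± 0.203 CPM in control. It passed only in luteolin against control at 0.53 ± 0.20 (adjusted p = 0.048), and the call was lost without control replicate 1, 2 or 3 (0.60, 0.51 and 0.49) or luteolin replicate 1 or 2 (0.43 and 0.54), with upper-quartile factors (0.48), with no filter (0.55) and with a replicate block (0.53). H2-Q2, the lowest tested class I gene, passed in none of the 3 comparisons and averaged 0.91 ± 0.114 CPM with luteolin, 1.04 ± 0.389 CPM in CIA and 0.708 ± 0.185 CPM in control; it too is named after its values were seen.

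H2-M3, which presents peptides that start with N-formylmethionine, as bacterial proteins do, was at 63.6, 73.3 and 61.3 CPM with luteolin, 46.5, 40.0 and 33.3 CPM in CIA and 85, 90.1 and 75.1 CPM in control. The 3 groups did not overlap. H2-M3 was higher with luteolin than in CIA at 0.73 ± 0.13 (adjusted p = 0.00101) and lower in CIA than in control at -1.06 ± 0.13 (adjusted p = 0.000116). Luteolin against control missed the threshold at -0.34 ± 0.13 (adjusted p = 0.0507) and passed as lower without control replicate 3 (-0.41), CIA replicate 1 (-0.34) or CIA replicate 3 (-0.34), with upper-quartile factors (-0.39), with no filter (-0.32), with only the 6 libraries compared (-0.34) and with a replicate block (-0.33). H2-K2 and H2-T10 had another pattern, being low in both CIA groups. H2-K2 averaged 37.6 ± 4.17 CPM with luteolin, 34.6 ± 4.52 CPM in CIA and 63.1 ± 4.3 CPM in control, and its log2 fold change was -0.75 ± 0.12 with luteolin against control (adjusted p = 0.000524) and -0.86 ± 0.12 in CIA against control (adjusted p = 0.000217). H2-T10 averaged 36.3 ± 0.474 CPM with luteolin, 33.9 ± 1.7 CPM in CIA and 58.3 ± 2.42 CPM in control, at -0.68 ± 0.08 (adjusted p = 6.6e-05) and -0.78 ± 0.08 (adjusted p = 3.5e-05) in the same comparisons. Neither passed between luteolin and CIA, at 0.12 ± 0.12 for H2-K2 and 0.10 ± 0.08 for H2-T10. H2-T10 shares 27.1% of its exonic bases with the opposite-strand gene BC023719, and H2-Q4 shares 19.1% with Gm11131.

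Of the 17 members without enough counts for the test, 14 were class I genes, 2 were the class II genes H2-Ea and H2-Pb, and 1 was H2-Pa. They had 0 counts in all 9 libraries in 6 cases and totals of 1 to 45 counts in the others, with at most 9 counts in a library. H2-Ea, the alpha chain of the class II E molecule, which several mouse haplotypes do not express, had 0, 0 and 4 counts with luteolin, 2, 2 and 2 in CIA and 8, 6 and 4 in control. A count of 0 in a library allows up to 3 fragments.

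The class I machinery was higher with luteolin than in CIA for each of its 8 tested genes, and for 6 of them also higher than in control. B2m, the light chain of all class I molecules, was at 363, 331 and 332 CPM with luteolin, 155, 174 and 199.9 CPM in CIA and 232, 242 and 240.3 CPM in control. The 3 groups did not overlap, with luteolin highest and CIA lowest. B2m was higher with luteolin than in CIA, with a log2 fold change of 0.96 ± 0.09 (adjusted p = 2.09e-05), lower in CIA than in control at -0.43 ± 0.09 (adjusted p = 0.00305) and higher with luteolin than in control at 0.52 ± 0.09 (adjusted p = 0.00115). Tapbp, or tapasin, which holds empty class I molecules at the transporter, was at 222, 219.5 and 229 CPM with luteolin, 97.7, 100.1 and 104 CPM in CIA and 144, 143 and 141 CPM in control. It had the same order without overlap and log2 fold changes of 1.15 ± 0.07 (adjusted p = 4.97e-07), -0.50 ± 0.07 (adjusted p = 0.00017) and 0.65 ± 0.07 (adjusted p = 3.25e-05) in these comparisons. Of its exonic bases 33.1% are shared with other genes, 29% with the opposite-strand gene model Gm19412 and 4.11% with the same-strand gene Zbtb22.

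The 2 chains of the peptide transporter differed in CIA. Tap1 was at 148, 162 and 142 CPM with luteolin, 64, 64.6 and 45.1 CPM in CIA and 141, 141 and 139 CPM in control. The CIA libraries lay far below the others, and luteolin lay just above control, which did not pass at 0.10 ± 0.12 (adjusted p = 0.53). Tap1 was higher with luteolin than in CIA at 1.38 ± 0.13 (adjusted p = 1.42e-05) and lower in CIA than in control at -1.28 ± 0.13 (adjusted p = 3.66e-05). Tap2 was at 140.4, 144 and 138 CPM with luteolin, 87.2, 82.4 and 73.8 CPM in CIA and 86.7, 94.1 and 86.8 CPM in control. For this chain CIA and control overlapped, at -0.14 ± 0.08 (adjusted p = 0.182), and luteolin lay above both, at 0.79 ± 0.08 against CIA (adjusted p = 2.95e-05) and 0.66 ± 0.08 against control (adjusted p = 0.000123). Tap1 shares 3.87% of its exonic bases with Psmb9, which lies head to head with it, and Tap2 shares 18.5% with gene models on the opposite strand.

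Under interferon gamma the 3 cutting subunits of the proteasome are replaced by Psmb8, Psmb9 and Psmb10, which make it an immunoproteasome. Psmb8 was at 218, 227 and 222 CPM with luteolin, 123, 121 and 98 CPM in CIA and 139, 155 and 149.6 CPM in control. Luteolin lay above control and control above CIA, with log2 fold changes of 0.96 ± 0.09 for luteolin against CIA (adjusted p = 2.1e-05) and -0.37 ± 0.09 for CIA against control (adjusted p = 0.00697). Psmb8 shares 14.7% of its exonic bases with the opposite-strand gene model Gm20496. Psmb9 was at 41.4, 47.1 and 36.5 CPM with luteolin, 22.8, 24.8 and 14.9 CPM in CIA and 37.5, 42.8 and 39.8 CPM in control. Its luteolin and control libraries overlapped above CIA, at 1.0 ± 0.17 for luteolin against CIA (adjusted p = 0.000825) and -0.94 ± 0.17 for CIA against control (adjusted p = 0.00116). Psmb10 was at 32.3, 34 and 36.9 CPM with luteolin, 10.5, 10.4 and 8.44 CPM in CIA and 19.4, 20.5 and 19.4 CPM in control. It had the largest rise with luteolin against CIA of the machinery genes, 3.52-fold, at 1.82 ± 0.11 (adjusted p = 6.81e-07), and was also higher than in control at 0.80 ± 0.10 (adjusted p = 0.000177).

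The constitutive subunits that they replace were measured too. Psmb5, the partner of Psmb8, averaged 26.7 ± 0.407 CPM with luteolin, 21 ± 2.04 CPM in CIA and 17.6 ± 2.15 CPM in control, Psmb6, the partner of Psmb9, averaged 36.8 ± 1.36 CPM with luteolin, 18.2 ± 1.47 CPM in CIA and 26.7 ± 2.83 CPM in control, and Psmb7, the partner of Psmb10, averaged 43.5 ± 2.84 CPM with luteolin, 28.8 ± 2.72 CPM in CIA and 34.8 ± 2.97 CPM in control. All 3 were higher with luteolin than in CIA, with log2 fold changes of 0.35 ± 0.11 for Psmb5 (adjusted p = 0.0246), 1.02 ± 0.10 for Psmb6 (adjusted p = 2.58e-05) and 0.60 ± 0.10 for Psmb7 (adjusted p = 0.000806). Per length, the ratio of Psmb10 to Psmb7 was 1.59 ± 0.132 with luteolin, 0.69 ± 0.138 in CIA and 1.15 ± 0.103 in control, with no overlap between the groups (SD, n = 3 each). The ratio of Psmb8 to Psmb5 was 2.21 ± 0.0648 with luteolin, 1.46 ± 0.302 in CIA and 2.25 ± 0.161 in control, with CIA below both others. The ratio of Psmb9 to Psmb6 was 0.58 ± 0.0848 with luteolin, 0.596 ± 0.184 in CIA and 0.775 ± 0.124 in control, and the groups overlapped. The ratios were not tested.

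Nlrc5, the activator of class I genes, was at 190.0, 201 and 201 CPM with luteolin, 127, 163 and 149.9 CPM in CIA and 155, 159 and 161 CPM in control. Luteolin lay above the other groups, which overlapped. Nlrc5 was higher with luteolin than in CIA at 0.43 ± 0.09 (adjusted p = 0.00311), did not pass in CIA against control at -0.11 ± 0.09 (adjusted p = 0.338), and was higher with luteolin than in control at 0.32 ± 0.09 (adjusted p = 0.0153). The last call was lost without control replicate 1 (0.30) or luteolin replicate 3 (0.31).

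**Figure D3:**
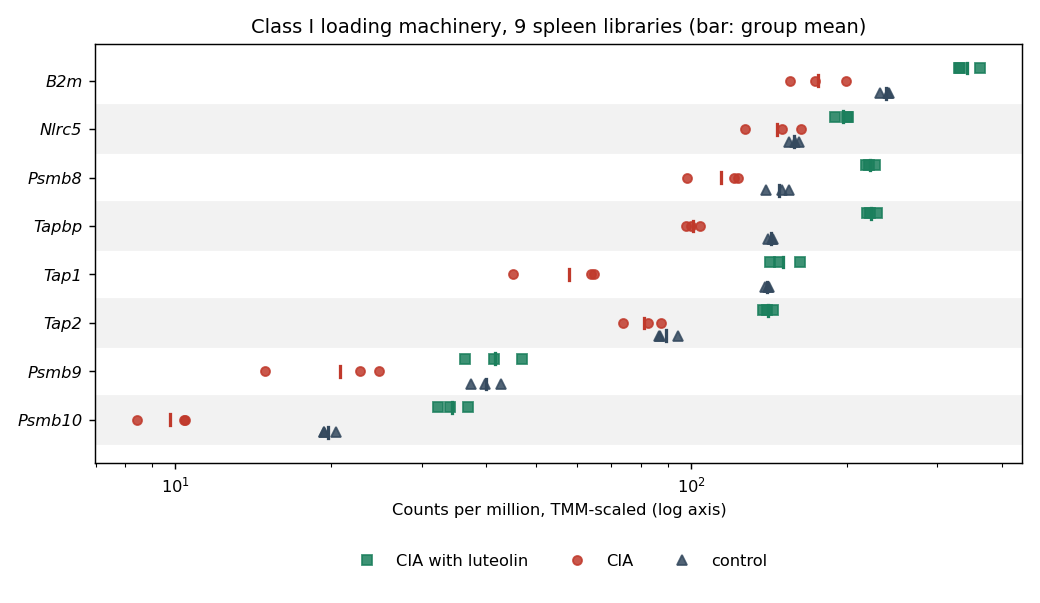
Level in CPM (log axis) of the 8 genes of the class I loading route (y axis) in each library of CIA with luteolin (squares), CIA (circles) and control (triangles), with the group mean as a bar. Luteolin squares lie right of the CIA circles for all 8 genes, and right of control for all but Psmb9, narrowly so for Tap1.

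Markers of other cells moved in the same libraries. Of 8 markers of macrophages and monocytes, 8 were higher with luteolin than in CIA, 6 were lower in CIA than in control and 7 were higher with luteolin than in control, and their summed level was 589 to 688 CPM with luteolin, 159 to 211 CPM in CIA and 218 to 284 CPM in control. Of 8 dendritic cell markers, 7 were tested, and 4 were higher and 1 lower with luteolin than in CIA; they summed to 52.1 to 61.8 CPM with luteolin, 20.4 to 30.1 CPM in CIA and 38.4 to 43.3 CPM in control, and Cd209a was at 0 in all luteolin and CIA libraries. Against control, 4 of the dendritic cell markers were lower and 1 higher in CIA, and 3 were higher with luteolin. Of 8 neutrophil markers, 5 were higher and 3 lower with luteolin than in CIA. Of 8 T cell markers, none was higher and 2 were lower in that comparison. Against control, 7 neutrophil and 7 T cell markers were higher in CIA, and 8 and 6 were higher with luteolin. No marker of these 2 sets was lower than in control. Over all tested genes, 23.1% were higher and 24.2% lower with luteolin than in CIA. In CIA 26.6% were higher and 24.5% lower than in control, and with luteolin 24.2% were higher and 20.8% lower than in control. The part of these cells in the class I and machinery results was not tested.

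Class II genes were at their highest in control, and the CIA libraries were uneven. H2-Ab1 (chr17:34476663-34488393), the beta chain of the class II A molecule and the most abundant class II gene, was at 405, 478 and 402 CPM with luteolin, 776, 579 and 253 CPM in CIA and 1356, 1284 and 1213 CPM in control. All 6 libraries of CIA and luteolin lay below control, and the luteolin libraries fell within the wide range of CIA, where replicate 1 was the highest and replicate 3 the lowest. The log2 fold change was -0.32 ± 0.29 with luteolin against CIA, which did not pass (adjusted p = 0.393), -1.26 ± 0.30 in CIA against control (adjusted p = 0.00524) and -1.58 ± 0.30 with luteolin against control (adjusted p = 0.00169). H2-Aa, the alpha chain of the same molecule, was at 33.5, 42 and 33.8 CPM with luteolin, 67.2, 44.5 and 17.4 CPM in CIA and 129, 132 and 120.3 CPM in control. It was high and low in the same CIA libraries and highest in control, with -1.56 ± 0.35 in CIA against control (adjusted p = 0.00402) and -1.8 ± 0.35 with luteolin against control (adjusted p = 0.00204). Per length, H2-Aa had 0.0574 ± 0.00183 of the level of H2-Ab1 with luteolin, 0.0523 ± 0.00607 in CIA and 0.067 ± 0.00246 in control (SD, n = 3 each), although the 2 chains pair in the protein. The haplotype of the mice is not given, and its effect on the counts of such variable genes was not tested.

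H2-Eb1, the beta chain of the E molecule, was at 137, 147 and 128 CPM with luteolin, 226, 147 and 67.3 CPM in CIA and 314, 371 and 362 CPM in control. Again control lay above all other libraries, at -1.25 ± 0.32 for CIA against control (adjusted p = 0.00742) and -1.34 ± 0.32 for luteolin against control (adjusted p = 0.00574). H2-Eb2, a second beta chain gene of this type, was at 10.5, 12.4 and 8.79 CPM with luteolin, 32, 25 and 8.57 CPM in CIA and 34.4, 37.1 and 36.6 CPM in control. It was the 1 class II gene called between luteolin and CIA, lower at -1.05 ± 0.35 (adjusted p = 0.0317), although CIA replicate 3 lay just below the luteolin libraries. The call was lost without CIA replicate 1 (-0.66), CIA replicate 2 (-0.94) or any 1 luteolin library (-1.04, -1.13 and -0.93), by DESeq2 (-1.02) and with only the 6 libraries compared (-1.02). In CIA against control H2-Eb2 did not pass at -0.72 ± 0.35 (adjusted p = 0.106), and passed without CIA replicate 1 at -1.10 and with no filter at -0.72.

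The genes that edit the peptides of class II molecules followed the chains in both comparisons with control. H2-DMa, the alpha chain of the DM editor, was at 7.83, 8.58 and 7.07 CPM with luteolin, 10.5, 8.6 and 8.93 CPM in CIA and 14.4, 14.6 and 14.3 CPM in control, and its log2 fold change was -0.63 ± 0.12 in CIA against control (adjusted p = 0.0014) and -0.88 ± 0.12 with luteolin against control (adjusted p = 0.000196). The CIA libraries were less uneven for H2-DMa than for other class II genes. It shares 10.4% of its exonic bases with the opposite-strand gene Brd2, which had 254808 counts over the 9 libraries against 3448 for H2-DMa. Whether reads of Brd2 in that stretch were kept apart is not known, because the strand setting of the counts is not given.

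The 2 DM beta chain genes differed in their balance. H2-DMb2 was at 29.8, 36.6 and 29 CPM with luteolin, 81.1, 50.3 and 13.8 CPM in CIA and 129, 135 and 127 CPM in control. H2-DMb1 was at 15.5, 18 and 17 CPM with luteolin, 19.9, 11.3 and 5.59 CPM in CIA and 32.5, 32.2 and 34.1 CPM in control. Both were highest in control, and in CIA replicate 1 was the highest and replicate 3 the lowest for both, as for H2-Ab1. H2-DMb2 was lower with luteolin than in control at -2.04 ± 0.45 (adjusted p = 0.00398) and lower in CIA than in control at -1.43 ± 0.44 (adjusted p = 0.0195), a call lost without control replicate 2 (-1.41) or CIA replicate 2 (-1.46) and at -2.03 without CIA replicate 1. H2-DMb1 was lower in CIA than in control at -1.42 ± 0.32 (adjusted p = 0.0044) and lower with luteolin than in control at -0.97 ± 0.32 (adjusted p = 0.0297), and this second call was lost without any 1 control or luteolin library (-0.90 to -0.98). Between luteolin and CIA neither passed, at -0.61 ± 0.44 for H2-DMb2 and 0.45 ± 0.32 for H2-DMb1, but H2-DMb1 passed as higher without CIA replicate 1 (0.99) and H2-DMb2 was at -0.01 without it. Per length, the ratio of H2-DMb2 to H2-DMb1 was 1.82 ± 0.161 with luteolin, 3.53 ± 1.01 in CIA and 3.82 ± 0.228 in control (SD, n = 3 each). All 3 luteolin libraries lay below all others, and the ratio was not tested. Of their 150-base stretches the pair share 4.14% of H2-DMb2 and 4.71% of H2-DMb1.

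H2-Ob and H2-Oa, the chains of the DO molecule that holds DM back and is made mainly by B cells, were among the class II genes furthest below control. H2-Ob was at 32.8, 44.8 and 36.6 CPM with luteolin, 72, 46.1 and 14.7 CPM in CIA and 179, 183 and 173 CPM in control, and its log2 fold change was -2.01 ± 0.41 in CIA against control (adjusted p = 0.00234) and -2.22 ± 0.41 with luteolin against control (adjusted p = 0.00148). H2-Oa was at 2.16, 1.46 and 1.6 CPM with luteolin, 2.97, 1.67 and 1.09 CPM in CIA and 7.3, 6.3 and 5.82 CPM in control, with -1.75 ± 0.30 (adjusted p = 0.000889) and -1.89 ± 0.30 (adjusted p = 0.00061). For both chains control lay above all other libraries, and the CIA range enclosed luteolin. H2-Oa shares 22.8% of its exonic bases with the opposite-strand gene BC051537.

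Cd74 (chr18:60936920-60945724), the invariant chain that fills the class II groove until a peptide is loaded, moved like the class II chains although it lies outside the MHC. It was at 283, 329 and 283 CPM with luteolin, 640.4, 419 and 184 CPM in CIA and 982, 945 and 931 CPM in control. Control again lay above all others, and CIA spanned luteolin. Cd74 was lower in CIA than in control at -1.2 ± 0.32 (adjusted p = 0.0102) and lower with luteolin than in control at -1.67 ± 0.33 (adjusted p = 0.00198), and did not pass between luteolin and CIA at -0.47 ± 0.32 (adjusted p = 0.246). Ciita (chr16:10297923-10346282), the activator of class II genes, was at 30.8, 37.7 and 29.8 CPM with luteolin, 55.4, 39 and 14.7 CPM in CIA and 110.5, 115 and 117 CPM in control. It had the same order, with -1.65 ± 0.35 in CIA against control (adjusted p = 0.00274), -1.8 ± 0.35 with luteolin against control (adjusted p = 0.00186) and -0.15 ± 0.34 with luteolin against CIA (adjusted p = 0.737).

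With all libraries, the class II genes H2-Aa (-0.24), H2-Eb1 (-0.09), H2-Ob (-0.22), H2-Oa (-0.14) and H2-DMa (-0.25) did not pass between luteolin and CIA (log2 fold changes). Leaving out CIA replicate 3 changed this result. Without it 6 of the class II genes were called lower with luteolin, against 1 with all libraries, and 25.3% of all tested genes were lower. Those newly called, by log2 fold change, were H2-Ab1 (-0.66), H2-Aa (-0.62), H2-Eb1 (-0.44), H2-Ob (-0.64) and H2-DMb2 (-1.05), and Cd74 (-0.83) and Ciita (-0.53) passed as lower as well. Leaving out CIA replicate 1 moved the result the other way, since no class II gene was then called lower, H2-DMb2 was at -0.01 and H2-DMb1 was called higher at 0.99 (adjusted p = 0.00319), beside 24.3% of all tested genes higher. With no filter on low counts, H2-Ab1 (-0.30), H2-DMb2 (-0.59) and Cd74 (-0.46) passed as lower and H2-DMb1 as higher (0.47), and with upper-quartile factors H2-DMa passed as lower (-0.32).

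**Figure D4:**
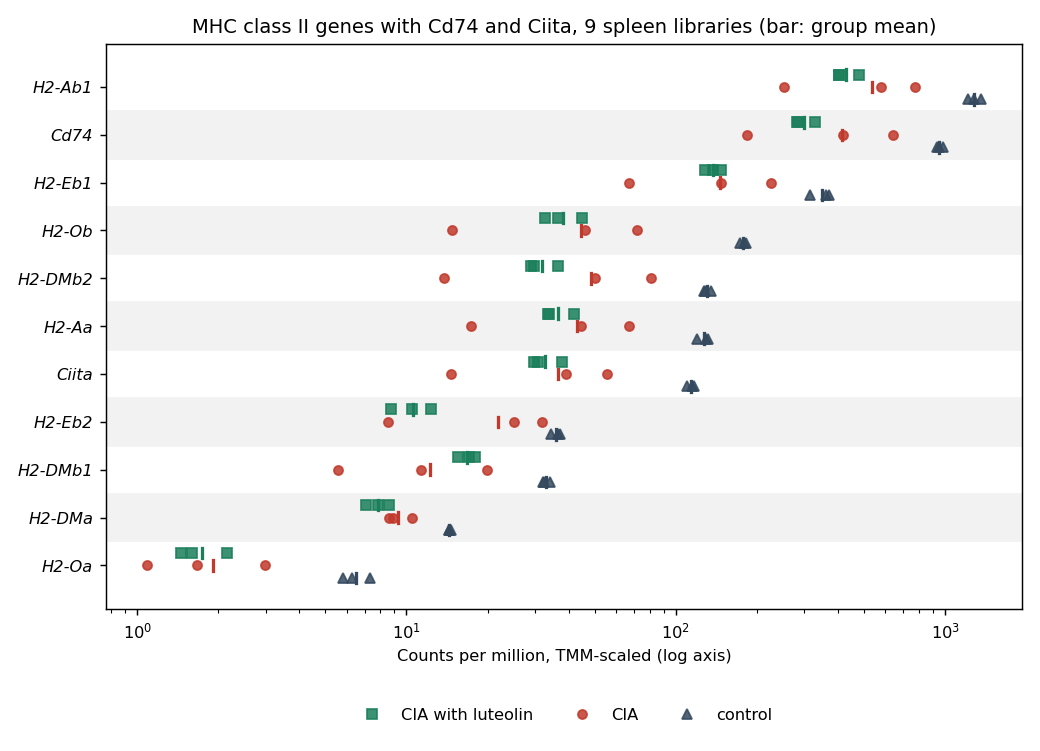
Level in CPM (log axis) of the 9 tested class II genes with Cd74 and Ciita (y axis) in each library of CIA with luteolin (squares), CIA (circles) and control (triangles), with the group mean as a bar. Control triangles lie right of all other libraries for every gene, and CIA circles spread widely around the luteolin squares for all but H2-DMa.

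B cell markers were high and low in the same CIA libraries as class II. The summed level of class II was 675, 789 and 664 CPM with luteolin, 1287, 913 and 390.1 CPM in CIA and 2195, 2195 and 2086 CPM in control. The summed level of 8 B cell markers was 438, 507 and 408 CPM with luteolin, 1572, 914 and 275 CPM in CIA and 2048, 1984 and 2039 CPM in control. In both sums CIA replicate 1 was the highest and replicate 3 the lowest of the CIA libraries, and control was above all others. Of the 8 B cell markers, 3 were lower with luteolin than in CIA and 5 were lower in CIA than in control. All 8 were lower with luteolin than in control. Over all tested genes 24.2%, 24.5% and 20.8% were lower in these comparisons. No B cell marker had its luteolin libraries wholly below CIA, and none was at 0 in a group. Set against Cd79a, a chain of the B cell receptor, H2-Ab1 had 16.5 ± 1.26 counts per Cd79a count with luteolin, 10.3 ± 0.676 in CIA and 11.1 ± 1.19 in control, and Cd74 had 11.5 ± 0.978 with luteolin, 7.8 ± 0.127 in CIA and 8.22 ± 0.65 in control (SD, n = 3 each). For both ratios CIA and control overlapped, and each luteolin library was above all the others, but this depends on the marker. Set against each of the 8 B cell markers in turn, a check chosen after seeing the data, all luteolin libraries lay above the other 6 with 4 markers for H2-Ab1 and with 3 for Cd74, and they overlapped the others with the rest. Per Ms4a1 count, H2-Ab1 had 5.2, 5.24 and 5.13 counts with luteolin, 3.95, 5.13 and 9.07 in CIA and 3.35, 3.46 and 3.22 in control, with CIA replicate 3 the highest. The part of B cells in the class II result was not tested.

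**Figure D5:**
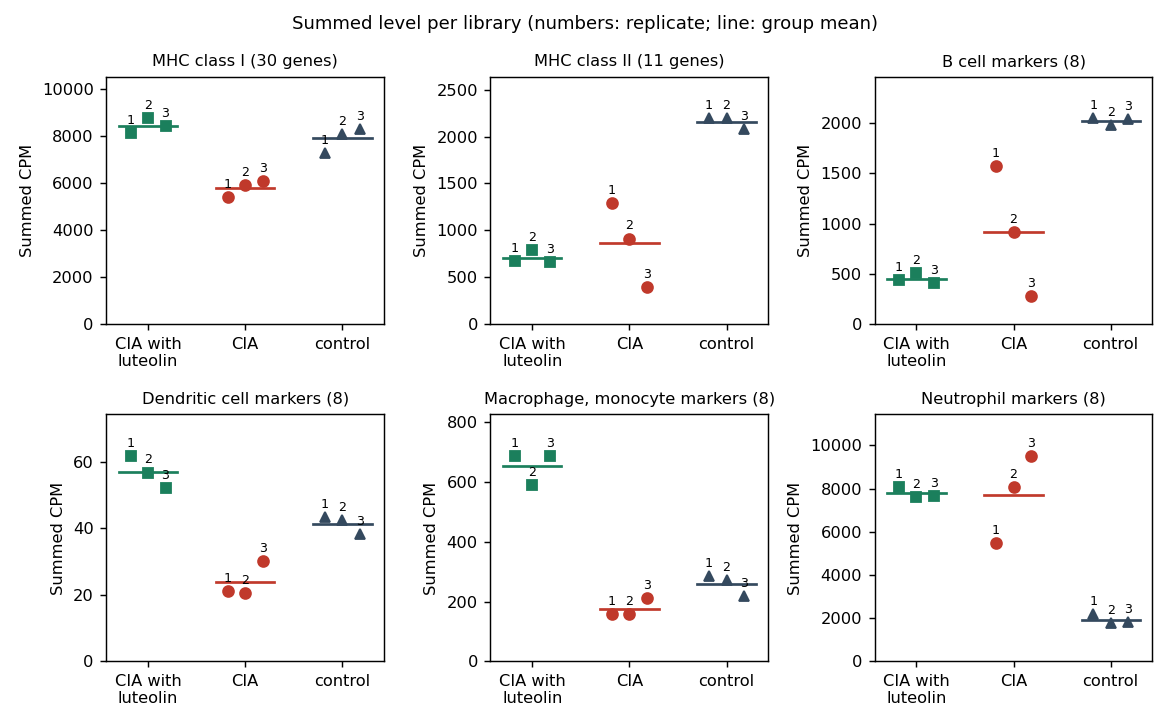
Summed CPM (y axis, from 0) of class I genes, class II genes and markers of B cells, dendritic cells, macrophages and neutrophils in each library, numbered by replicate, of CIA with luteolin, CIA and control, with the group mean as a line. Class II and B cell markers both have CIA replicate 1 as the highest and replicate 3 as the lowest of CIA and are highest in control, while class I is lowest in the 3 CIA libraries.

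Genes of both patterns lie next to each other. Psmb9, Tap1, Psmb8 and Tap2 lie side by side from 34400961 to 34435295 on chromosome 17, within the class II region, between H2-DMb1, which ends at 34379204, and H2-Ob, which starts at 34457877. These 4 genes were higher with luteolin than in CIA, at 1.0, 1.38, 0.96 and 0.79 on the log2 scale (SE 0.08 to 0.17). The flanking H2-DMb1 (0.45 ± 0.32) and H2-Ob (-0.22 ± 0.40) did not pass, with wider SEs. H2-DMb1 did pass as higher without CIA replicate 1 (0.99) and with no filter (0.47). H2-Ob passed as lower without CIA replicate 3 (-0.64), so the contrast with the flanking genes is not firm. B2m on chromosome 2, and Nlrc5 and Psmb10 on chromosome 8, lie outside the MHC and were called in the same direction as those 4.

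H2-Ke6, an H2- gene by name that encodes a hydroxysteroid dehydrogenase and no MHC chain, was lower in each comparison. It averaged 14 ± 1.39 CPM with luteolin, 18 ± 2.75 CPM in CIA and 23.7 ± 1.37 CPM in control, with log2 fold changes of -0.37 ± 0.13 with luteolin against CIA (adjusted p = 0.0367), -0.40 ± 0.13 in CIA against control (adjusted p = 0.0226) and -0.76 ± 0.13 with luteolin against control (adjusted p = 0.000805). The first call was lost without any 1 library other than CIA replicate 3 (-0.26 to -0.40), with no filter (-0.34) and with only the 6 libraries compared (-0.33), and the second without control replicate 2 (-0.36). Of its exonic bases 86.4% are shared with the gene model Gm20427. H2-Pa and H2-Pb, named for the class II P region, were close to 0. H2-Pa had 45 counts over the 9 libraries and shares 59.8% of its exonic bases with another gene.

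A further 30 genes of the pathway that are not members were read from the same test. Of these, 19 were higher and 3 lower with luteolin than in CIA, 5 higher and 14 lower in CIA than in control, and 20 higher and 4 lower with luteolin than in control, with median log2 fold changes of 0.61, -0.23 and 0.49. Of all tested genes, 23.1% were higher and 24.2% lower with luteolin than in CIA (median -0.04), 26.6% higher and 24.5% lower in CIA than in control (median -0.01), and 24.2% higher and 20.8% lower with luteolin than in control (median -0.01). Psme1 and Psme2, the subunits of the proteasome activator that interferon gamma induces, averaged 779 ± 7.44 CPM with luteolin, 314 ± 26.3 CPM in CIA and 549 ± 9.53 CPM in control for Psme1 and 232 ± 5.48 CPM with luteolin, 99.4 ± 2.92 CPM in CIA and 154 ± 7.08 CPM in control for Psme2. Both had CIA lowest and luteolin highest without overlap, at 1.31 ± 0.07 for Psme1 (adjusted p = 4.12e-07) and 1.22 ± 0.07 for Psme2 (adjusted p = 4.76e-07) with luteolin against CIA. Irf1, a transcription factor of the interferon response, had the same order. It averaged 197 ± 10.2 CPM with luteolin, 85.2 ± 2.21 CPM in CIA and 122 ± 3.8 CPM in control and was higher with luteolin than in CIA at 1.21 ± 0.07 (adjusted p = 6.17e-07). Irf1 shares 20% of its exonic bases with the opposite-strand gene model Gm17334.

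Ifngr1, a chain of the interferon gamma receptor, did not follow them. It averaged 192 ± 4.55 CPM with luteolin, 179 ± 30.7 CPM in CIA and 93.7 ± 0.915 CPM in control, higher in CIA than in control at 0.94 ± 0.11 (adjusted p = 0.000108) and not past the threshold between luteolin and CIA at 0.10 ± 0.11 (adjusted p = 0.503). Cd1d1, a class I-like gene outside the MHC whose product shows lipids to NKT cells, averaged 19.9 ± 1.67 CPM with luteolin, 4.52 ± 0.4 CPM in CIA and 10.8 ± 1.09 CPM in control. It was higher with luteolin than in CIA at 2.13 ± 0.13 (adjusted p = 6.3e-07) and lower in CIA than in control at -1.26 ± 0.13 (adjusted p = 3.71e-05). The chaperones of the loading complex, Calr and Pdia3, and the tapasin relative Tapbpl were higher with luteolin than in CIA as well. Calr was at 1.26 ± 0.10 (adjusted p = 5.91e-06), Pdia3 at 0.94 ± 0.06 (adjusted p = 1.42e-06) and Tapbpl at 1.22 ± 0.09 (adjusted p = 2.05e-06). In CIA against control, Calr (-0.19 ± 0.10, adjusted p = 0.132) and Pdia3 (-0.07 ± 0.06, adjusted p = 0.346) did not pass, and Tapbpl was lower at -0.93 ± 0.09 (adjusted p = 2.35e-05).

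On the class II side, the genes of the list given here are named after their values were seen. Ctss, the protease that trims the invariant chain, was at 1977, 1788 and 1931 CPM with luteolin, 309.6, 188 and 122 CPM in CIA and 824, 724 and 649 CPM in control. The luteolin libraries lay far above control and control above CIA, with log2 fold changes of 3.2 ± 0.27 with luteolin against CIA (adjusted p = 8.27e-06), -1.82 ± 0.26 in CIA against control (adjusted p = 0.00029) and 1.37 ± 0.26 with luteolin against control (adjusted p = 0.00152). Rfx5, which binds the X box, averaged 30.7 ± 3.37 CPM with luteolin, 28.8 ± 10.6 CPM in CIA and 54.6 ± 0.96 CPM in control, at -0.92 ± 0.22 in CIA against control (adjusted p = 0.00602) and 0.09 ± 0.22 with luteolin against CIA (adjusted p = 0.763). It shares 26.8% of its exonic bases with the opposite-strand gene B230398E01Rik. Related genes of the list did not follow Rfx5. Rfxap did not pass in CIA against control (0.11 ± 0.10, adjusted p = 0.376) and was lower with luteolin than in CIA (-0.60 ± 0.10, adjusted p = 0.000851). Rfxank, Nfya and Nfyc passed in no comparison, and Nfyb was lower with luteolin than in CIA (-0.29 ± 0.09, adjusted p = 0.0185).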

How the data were processed

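Per the labels' protocols, stranded mRNA libraries of 9 samples were sequenced from both ends (DNBSEQ-T7). The submitters' processing notes name Trimmomatic 0.36 for trimming, and the labels' protocols name the mapper as STRA 2.5.3a. As reference, the protocols name CHOK1GS, a hamster cell line genome, but the processing notes name mm39, and the table lists mouse genes. The deposited table holds raw counts per gene, which the authors obtained with featureCounts (Subread 1.5.1), per the labels' protocols. The strand setting, the rule for reads that match several genes and the annotation release are not given in the sources used here. The RPKM values and edgeR 3.12.1 output that the protocols mention were not used. Even numbers made up 73.4% of the values between 1 and 10 and 52.8% of those between 201 and 1000, and whether the 2 mates of a pair were counted apart is not stated.

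The counts were tested with edgeR 4.0.16 in R 4.3.3 (limma 3.58.1). The filterByExpr function kept 19348 genes, TMM factors ran from 0.95 to 1.02, and the quasi-likelihood fit took all 9 libraries with group as its term. Tests are 2-sided and p-values are adjusted by Benjamini-Hochberg across those 19348 genes. An SE is the absolute log2 fold change over the root of the F statistic. Levels are given in TMM-scaled CPM and their SD is over the 3 libraries of a group. The same steps were first tested on simulated data holding known changes. Only a small share of genes was changed there, whereas 45.0% to 51.1% of tested genes passed here. That check therefore cannot show how the steps behave when so many genes differ. Libraries of a group differed beyond sampling noise (chi-square over degrees of freedom 5.51 or more), so none was counted as a duplicate. Alternatives were DESeq2 1.42.0, other scalings and filters, the 6 libraries compared alone, a replicate block and each library left out in turn.

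The members, lists and markers were chosen with earlier results of these data known. Named with values are all class II and machinery members, class I members with a mean of at least 10 CPM or among the 6 smallest p of a comparison, and, of the pathway list, the 5 smallest p of each comparison with Psmb5, Psmb6 and Psmb7, except 1 gene that is not reported here. Promoter windows came from RefSeq on GRCm38.p6, and 150-base stretches shared between genes from GENCODE transcripts of GRCm38. The forms of the motifs searched were chosen with the windows in view.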

Additional observations from a re-analysis of the deposited data

How the results depend on the processing

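Of 18 counts of called members by class and direction, 14 stayed within 1.5 times under every alternative run, and 4 did not. Class I genes higher with luteolin than in control numbered 2, and 1 without a filter, 4 with only the 6 libraries compared, 1 with upper-quartile factors and 1 to 3 with a library left out. With the replicate block that count was 1, and the block changed 2 calls among 108 member fold changes, both between luteolin and control, H2-Q1 (0.53, adjusted p = 0.0649) being lost and H2-M3 (-0.33, adjusted p = 0.0228) gained. The replicate numbers were not treated as pairs in the main test, since 2 of 9 same-number pairs correlated above the limit of 0.1 (0.007 to 0.143). However, 16 of 18 sample and group combinations correlated best at their own number, so whether the numbers pair the samples is not settled. Class II genes higher with luteolin than in CIA numbered 0, and 1 without a filter and 0 to 1 with a library left out. Class II genes lower in that comparison numbered 1, and 0 by DESeq2, 3 without a filter, 0 with only the 6 libraries compared, 2 with upper-quartile factors and 0 to 6 with a library left out. Machinery genes lower there numbered 1, and 0 with only the 6 libraries compared and 0 to 3 with a library left out. The cause of these differences was not tested. Of 1725 alternative values of the member fold changes, 1653 stayed on their side of the threshold, 45 lost the call and 27 gained one. In 0 cases was the direction reversed with a call in either run. Changes of sign where neither run passed were not counted apart. Depth limits the 17 members that were not tested and H2-M2 in CIA, and with 3 libraries a group small differences may be missed.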
